A study of Mus musculus with 24 samples.

Results

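T cell receptor (TCR) repertoires of tumors from mice that received low-dose decitabine (DAC) were compared with those of untreated mice whose tumors were collected over the same interval. The samples were chosen by their labels: 6 tumors of mice 3, 11 and 20, labelled with DAC at 0.5 mg/kg, and 6 tumors of mice 4, 17 and 19, labelled time separated with no treatment. They are 12 of the 24 tumors, 6 of the 12 mice and 24 of the 48 libraries of the series, with 1 TCRα and 1 TCRβ library per tumor. All were female BALB/c mice, 7 to 9 weeks of age, that carried CT26.CL25 colon carcinoma cells, a CT26 derivative that expresses beta-galactosidase, injected into both flanks. In all 6 mice the tumor of 1 flank was excised on day 9 and the other was harvested 11 days later, on day 20. The low-dose mice received DAC by the intraperitoneal route on 5 successive days from 3 days after surgery, and their remaining tumor was taken 4 days after the last dose. The untreated mice had the same surgery and interval. The study refers to them as vehicle, whereas their labels give no treatment.

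The 2 tumors of an animal are labelled 1 and 2, with no word on which came out first. In each low-dose mouse 1 tumor was removed before the drug was given, and the labels do not show which, so each mouse gave 1 value over both tumors and no direction in time was read. RNA came from whole tumors. Fewer T cells and less receptor RNA per T cell cannot be told apart in such samples. The labelled cell type is colon cancer cells, while the libraries hold only receptor sequences, so no marker gene of any cell type could be checked.

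A TCR is a pair of an α and a β chain. Each chain is assembled in the thymus by joining a V and a J segment, with a D segment between them in the β chain, and bases are trimmed and added at the joints. The complementarity determining region 3 (CDR3) spans the joint and makes most of the contact with the peptide, so cells with the same CDR3, V and J usually descend from the same clone. Decitabine is a cytidine analog that is built into DNA, traps DNA methyltransferases and lowers methylation in dividing cells. Such drugs are known to raise antigen presentation by tumor cells and to alter T cell differentiation, which is why the receptor repertoire of treated tumors is of interest.

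The CDR3 sequences below belong to the largest TCRβ and TCRα clonotype of each low-dose mouse, taken by the share summed over its tumors, and are shown because they held the largest share and are followed between tumors below. They run 5′ to 3′ from the conserved cysteine codon to the last codon of the CDR3. Capitals mark the middle bases that lie outside the longest start shared with at least 5% of the distinct CDR3s of the same V segment and the longest end shared with at least 5% of those of the same J segment, which approximates the joint, since no germline segment sequences were used. A sequence wholly in lower case had no such bases, which does not show that none were added at its joint.
mouse 3 β, TRBV19 with TRBJ2-1: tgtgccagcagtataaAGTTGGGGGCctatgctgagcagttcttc
mouse 11 β, TRBV17 with TRBJ2-1: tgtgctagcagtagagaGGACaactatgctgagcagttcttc
mouse 20 β, TRBV17 with TRBJ2-4: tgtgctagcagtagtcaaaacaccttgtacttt
mouse 3 α, TRAV14-1 with TRAJ39: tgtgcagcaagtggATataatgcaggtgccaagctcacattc
mouse 11 α, TRAV6-5 with TRAJ30: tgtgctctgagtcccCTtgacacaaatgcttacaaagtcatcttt
mouse 20 α, TRAV11 with TRAJ32: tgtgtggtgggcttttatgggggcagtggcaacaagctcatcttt

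Counts per receptor sequence were used as deposited, after sequences with a stop or out-of-frame mark and those with fewer than 2 counts had been left out. The TCRβ libraries held 63291 to 199081 counts in low-dose tumors and 97815 to 207072 in untreated tumors. The mean per mouse was 129718 ± 17255 (SD, n = 3) against 170696 ± 18427, and the groups did not overlap. The TCRα libraries held 55862 to 198499 and 73240 to 183066 counts, and the mouse means overlapped. For all measures of diversity and overlap each library was thinned to the smallest of the series, 63291 counts for TCRβ and 26623 for TCRα. Group differences in 26 measures were tested with two-sided exact permutation tests over mice. With 3 mice against 3 these cannot give a p below 0.1, so no comparison could pass 0.05.

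In the TCRα chain the low-dose mice had less even repertoires than the untreated time-separated mice, by mouse means, while the TCRβ chain showed overlapping groups. The normalized Shannon index, which is 1 when all clonotypes are of equal size, was 0.634, 0.629 and 0.672 in mice 3, 11 and 20 for TCRα. It was 0.706, 0.688 and 0.719 in the untreated mice 4, 17 and 19. Every low-dose mouse lay below every untreated mouse, with means of 0.645 ± 0.024 and 0.704 ± 0.016 (SD, n = 3 each; exact permutation p = 0.1, the smallest possible, adjusted 0.867). The Gini coefficient, which rises toward 1 as few clonotypes hold most counts, was 0.851, 0.870 and 0.837 in the low-dose and 0.817, 0.831 and 0.798 in the untreated mice. These groups did not overlap either, with a difference of 0.037 (exact permutation p = 0.1, adjusted 0.867). TCRα clonotypes of 0.01% to 0.1% of a tumor's counts held 16.1%, 15.5% and 19.7% of all counts in the low-dose mice. They held 23.3%, 20.8% and 24.1% in the untreated mice, again without overlap (exact permutation p = 0.1, adjusted 0.867). In the untreated time-matched mice, whose tumors were both collected at the same time, they held 15.1% ± 8.53. With high-dose DAC they held 15.3% ± 1.22. The Shannon index, the Gini coefficient and this share in TCRα were the only 3 measures of the 26 at the smallest p. A measure without any difference reaches it with a probability of 0.1. The 3 describe the same libraries and are not independent. The separation of the Shannon index, the Gini coefficient and the share of small clonotypes in TCRα was lost in tumor 1 alone (exact permutation p = 0.6, 0.5 and 0.2), and in tumor 2 alone the groups separated for the Shannon index only. That of the Gini coefficient was also lost when sequences of a single count were kept (exact permutation p = 0.2).

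Large TCRα clonotypes held more of the counts in most low-dose mice. Clonotypes above 1% held 59.4%, 60% and 51.1% of TCRα counts in the low-dose mice and 45.2%, 52.6% and 44.5% in the untreated mice. Mouse 20 lay below mouse 17, so the groups overlapped (difference 9.44 percentage points, exact permutation p = 0.2). Their number was alike, 14.9 ± 1.18 per tumor against 14.6 ± 1.48, while the counts they held were not. The 10 largest TCRα clonotypes held 50.2% ± 6.93 of counts in low-dose and 40.8% ± 2.03 in untreated mice. Clonotypes of 0.1% to 1% were fewer, 84.8 ± 7.25 against 104 ± 14.2 per tumor.

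In TCRβ the same measures pointed the same way with overlapping groups. The Shannon index was 0.579, 0.582 and 0.598 in the low-dose mice and 0.652, 0.567 and 0.635 in the untreated mice (exact permutation p = 0.4). Mouse 17 was the untreated mouse that fell below the whole low-dose group. The share of counts above 1% was 64.5% ± 2.85 against 59.3% ± 6.36 (exact permutation p = 0.4). The number of TCRβ clonotypes at common depth was 1634, 1824 and 1990 in the low-dose mice and 2356, 2057 and 1919 in the untreated mice. The groups overlapped through mice 20 and 19 (difference -294, exact permutation p = 0.2, adjusted 0.918). The TCRβ sequencing depth before thinning was also lower in the low-dose mice, as given above, and its part in this difference was not tested beyond the thinning. For TCRα the number was 1245 ± 334 against 1441 ± 131 (exact permutation p = 0.6), and mouse 3 had the fewest at 892.

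**Figure D1:**
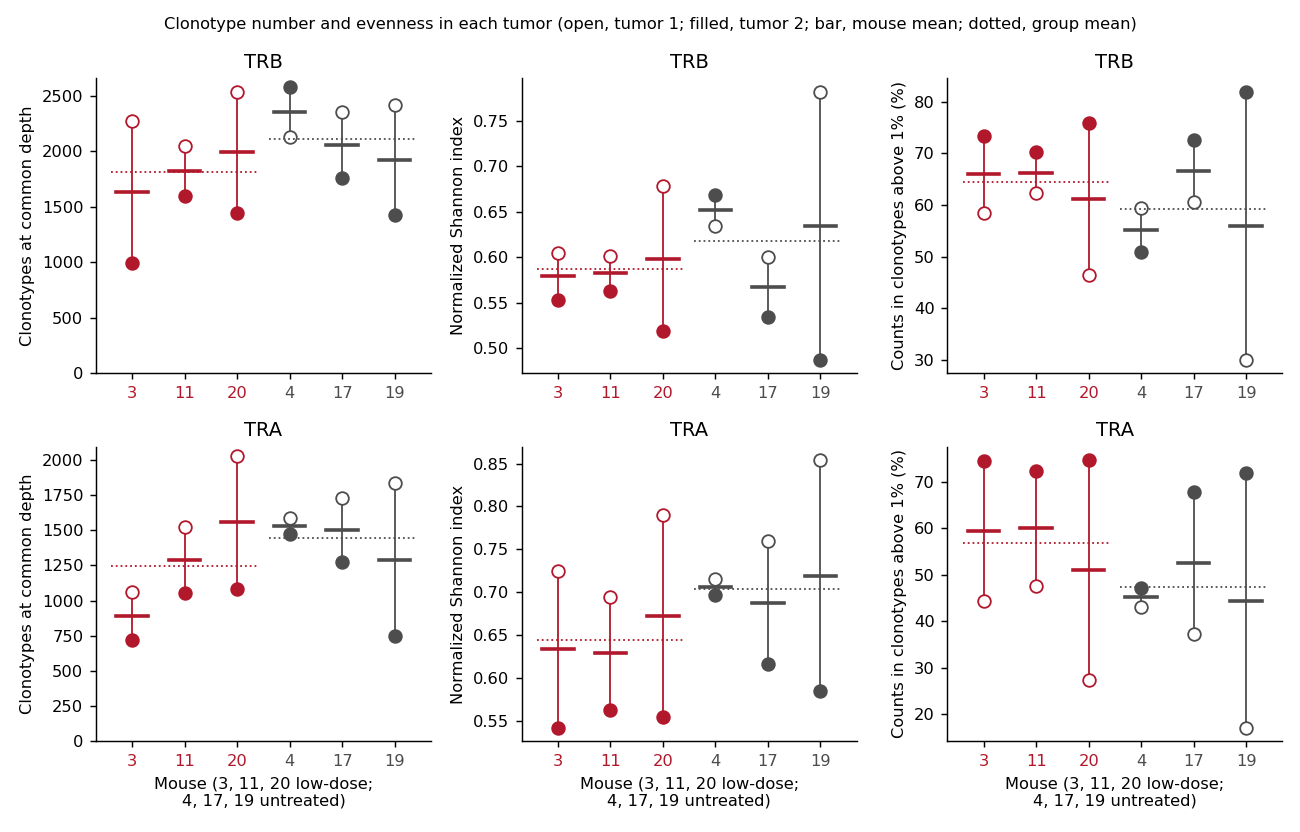
Clonotype number at common depth, normalized Shannon index and percent of counts in clonotypes above 1% (y axes) in each mouse (x axis), for TCRβ (TRB, top row) and TCRα (TRA, bottom row). Open and filled circles are tumors 1 and 2, bars are mouse means and dotted lines are group means. In the middle bottom panel the bars of the low-dose mice (0.629 to 0.672) all lie below those of the untreated mice (0.688 to 0.719).

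The tumors of a low-dose mouse differed widely from each other. Tumor 2 held fewer TCRβ clonotypes than tumor 1 in 3 of 3 low-dose mice, with a tumor 2 minus tumor 1 difference of -1282 in mouse 3, -445 in mouse 11 and -1095 in mouse 20. Among the untreated mice the difference was -591 and -993 in mice 17 and 19, and 445 in mouse 4. TCRβ depth before thinning was also lower in tumor 2 in mice 3, 11 and 20, at 63291, 98820 and 96406 counts against 185931, 199081 and 134780 in tumor 1. It was lower in tumor 2 of mice 4 and 17 and higher in that of mouse 19, and its part in these differences was not tested beyond the thinning. In TCRα tumor 2 had fewer clonotypes and a larger share above 1% in all 6 mice. TCRα depth before thinning was also lower in tumor 2 of mice 3, 11, 20, 4 and 17. In mouse 19 it was nearly level, at 87159 counts in tumor 1 and 87179 in tumor 2. Its part was not tested beyond the thinning. The share above 1% of TCRα counts was higher in tumor 2 by 30.1, 24.8 and 47.4 percentage points in mice 3, 11 and 20. It was higher by 4.08, 30.5 and 54.9 points in mice 4, 17 and 19. The low-dose values thus lay inside the range of the untreated ones. In the low-dose mice tumor 2 reached a similar TCRα share above 1% in each animal, 74.5%, 72.5% and 74.7%, whereas tumor 1 ranged from 27.4% to 47.6%. In untreated mice 4, 17 and 19 tumor 2 had 47.2%, 67.8% and 71.9%. Which of these tumors was the earlier one was not labelled, and these differences were described without a test.

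The size of the tumor 1 to tumor 2 change did not separate the groups in any measure. The Morisita-Horn index, an overlap of clonotypes weighted by abundance that is 1 for identical repertoires, was 0.486, 0.605 and 0.706 for TCRβ in the low-dose mice. It was 0.606, 0.949 and 0.605 in the untreated mice, so the low-dose mean of 0.599 ± 0.110 lay below 0.720 ± 0.198 while mouse 11 lay between mice 19 and 4 and mouse 20 above both (exact permutation p = 0.5). For TCRα the order of the means was the opposite. The index was 0.571, 0.706 and 0.322 in the low-dose mice and 0.383, 0.799 and 0.147 in the untreated mice (means 0.533 ± 0.194 and 0.443 ± 0.330, exact permutation p = 0.8). Between different mice the TCRβ index had a median of 0.00942 within the low-dose group, 0.0134 within the untreated group and 0.0102 across the groups. The highest TCRβ value between any of these mice was 0.0739, below every value within a mouse. For TCRα the medians were 0.0386 within the low-dose group, 0.0259 within the untreated group and 0.00868 across the groups. Pairs of tumors share mice, and these medians were not tested. The highest TCRα value between mice was 0.189, of mice 17 and 19, above the 0.147 within mouse 19 and below the values within the other 5 mice.

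The private share covers clonotypes that were detected on 1 side of the animal and not on the other, as a percent of counts averaged over the tumors. It was 17.0%, 18.2% and 21.3% for TCRβ in the low-dose mice and 27.6%, 10.6% and 36.9% in the untreated mice (exact permutation p = 0.6). For TCRα it was 24.7% ± 3.46 against 34.9% ± 18.8 (exact permutation p = 0.6). Mouse 19 had the highest and mouse 17 the lowest private share of the 6 mice in both chains, so the low-dose mice lay between them.

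Usage of V segments, J segments and CDR3 lengths was compared between the tumors of a mouse by the percent of counts that would have to move to turn 1 usage profile into the other. V usage moved by 28.9%, 28.4% and 23.1% for TCRβ in the low-dose mice and by 24.4%, 12.3% and 39.6% in the untreated mice (exact permutation p = 0.9). J usage moved by 32.1%, 15.1% and 13.7% and by 27.2%, 8% and 24.6% (exact permutation p = 1). CDR3 length moved by 21.2% ± 3.48 against 17.0% ± 9.06 (exact permutation p = 0.6). Mouse 17 had the smallest change of the 6 mice in each of these TCRβ profiles. For TCRα, V usage moved by 40.0% ± 3.48 in low-dose and 40.2% ± 10.9 in untreated mice (exact permutation p = 1). J usage moved by 31.6% ± 9.54 and 34.7% ± 16.5 (exact permutation p = 1). CDR3 length moved by 20.6%, 21% and 23.3% against 11.8%, 15.0% and 22.6% (exact permutation p = 0.3), where mouse 19 overlapped the low-dose mice. The SD over the untreated mice was larger than that over the low-dose mice in all 6 of these profiles, by little for TCRβ J usage. With 3 mice per group the spread itself was not tested.

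**Figure D2:**
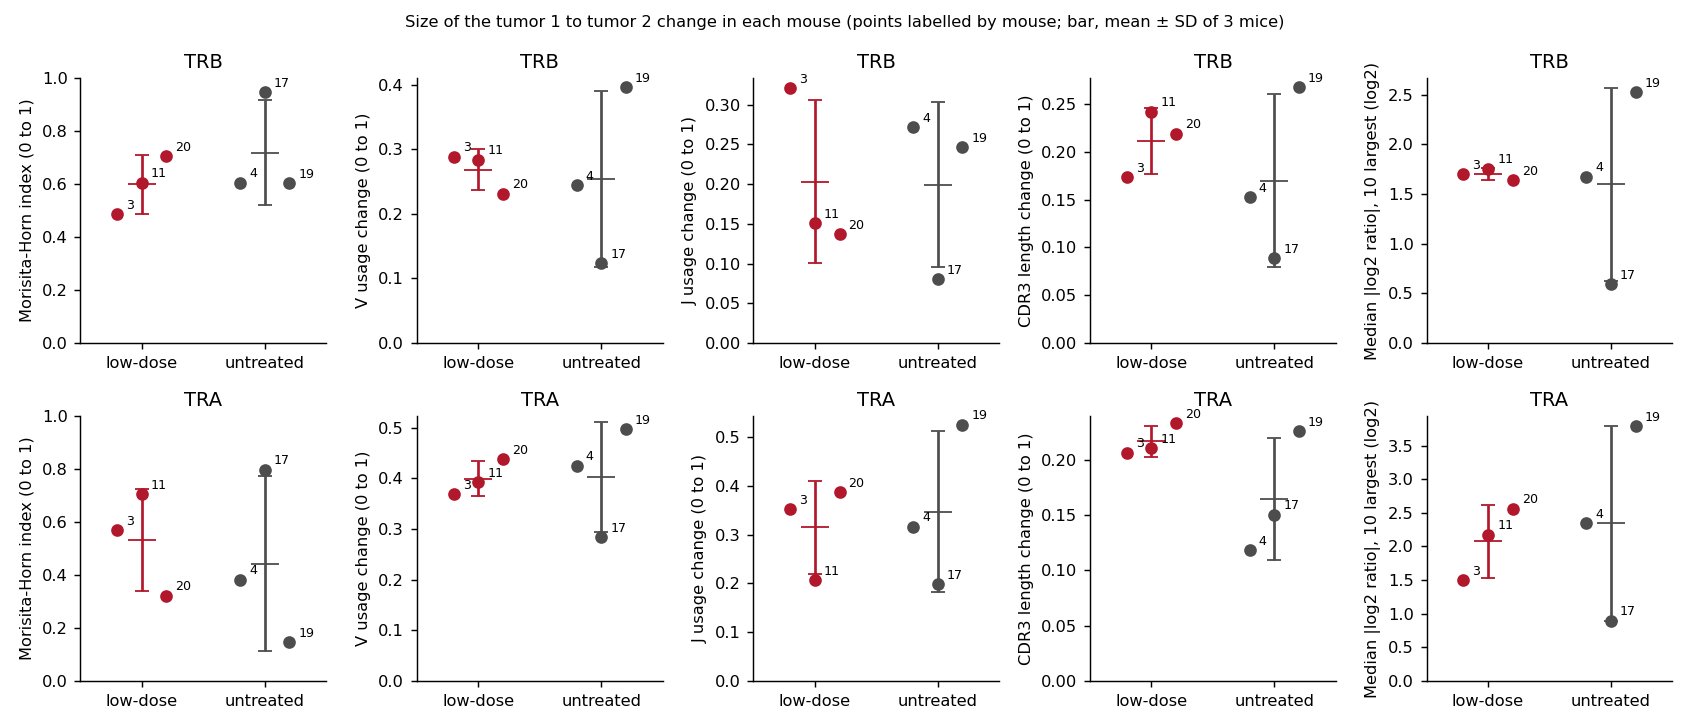
Size of the tumor 1 to tumor 2 change in low-dose and untreated mice for TCRβ (TRB, top) and TCRα (TRA, bottom). The y axes give the Morisita-Horn index, the V, J and CDR3 length changes as fractions of counts, and the median absolute log2 ratio of the 10 largest clonotypes. Points are mice and bars are mean ± SD (n = 3). All panels show overlapping groups, and mice 17 and 19 are the extremes of the untreated group in most of them.

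The 10 largest clonotypes of either tumor were followed in each mouse, 41 TCRβ clonotypes in the low-dose and 41 in the untreated mice. In the low-dose mice 17 of them were more than 2-fold higher in tumor 2, 11 more than 2-fold lower and 13 within 2-fold. In the untreated mice these numbers were 15, 10 and 16. Clonotypes that ranked among the 10 largest of both tumors numbered 19 in each group. For TCRα 43 were followed in the low-dose mice, of which 22 were higher, 11 lower and 10 within 2-fold, and 44 in the untreated mice, of which 22 were higher, 12 lower and 10 within 2-fold. No followed clonotype of the low-dose mice was missing from a tumor in either chain when all retained counts were used. At the common depth a mean of 0.6 TCRα clonotypes in mouse 11 and 0.05 in mouse 20 were missed. With all counts, 1 TCRβ and 6 TCRα clonotypes of the untreated mice were missing, all but 1 of them in mouse 19. The median absolute log2 ratio was 1.70, 1.76 and 1.64 for TCRβ in the low-dose mice and 1.67, 0.59 and 2.52 in the untreated mice (exact permutation p = 0.8). For TCRα it was 1.5, 2.17 and 2.56 against 2.34, 0.89 and 3.79 (exact permutation p = 0.9). The TCRβ means were 1.70 ± 0.06 and 1.60 ± 0.97, with a spread over the untreated mice that leaves the size of any difference unresolved.

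**Figure D3:**
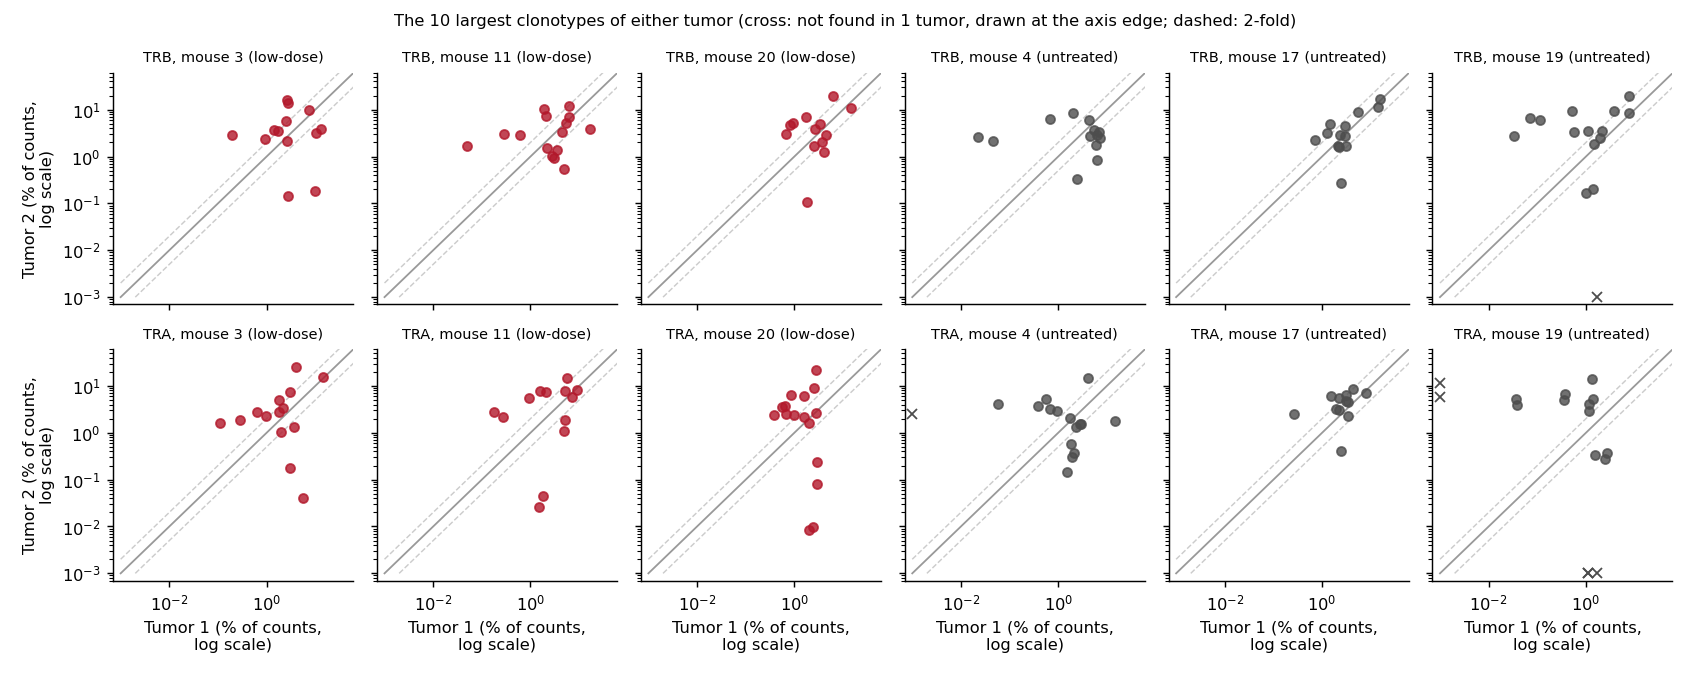
Share of counts in tumor 1 (x axis, percent, log scale) and tumor 2 (y axis, percent, log scale) of the 10 largest clonotypes of either tumor in each mouse, TCRβ (TRB) on top and TCRα (TRA) below. The solid line marks equal shares, dashed lines 2-fold, and crosses clonotypes found in only 1 tumor. Low-dose mice show points on both sides of the line and no crosses, and the untreated mouse 17 shows the points closest to the line.

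Single clonotypes made up large parts of the low-dose tumors and moved in both directions. In mouse 3 the TRBV19 clonotype shown above held 2.65% of tumor 1 (4931 counts, exact 95% interval 2.58% to 2.73%) and 16.1% of tumor 2 (10202 counts, 15.8% to 16.4%). In the same mouse a TRBV14 clonotype with TRBJ2-5 and the CDR3 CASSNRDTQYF held 9.77% of tumor 1 and 0.183% of tumor 2, a log2 ratio of -5.74. It was the third largest of tumor 1 and ranked 38 in tumor 2. In mouse 11 the TRBV17 clonotype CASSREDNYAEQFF was the largest of tumor 1 at 16.7% and held 3.83% of tumor 2, and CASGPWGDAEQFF, with TRBV13-2 and TRBJ2-1, held 1.86% and 10.1%. In mouse 20 the TRBV17 clonotype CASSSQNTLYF held 6.28% of tumor 1 and 19.5% of tumor 2, where it was the largest. The largest TCRβ loss of mouse 20 in percentage points was that of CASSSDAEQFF, also with TRBV17, from 14.8% to 10.8%. By ratio a smaller clonotype differed more, with 1.83% of tumor 1 and 0.105% of tumor 2. Intervals cover counting error only, since PCR copies of a molecule are not independent counts.

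Large shifts were also seen among single TCRα clonotypes of the low-dose mice. In mouse 3 the TRAV14-1 clonotype shown above was the largest over both tumors and nearly level, at 14.2% and 15.2%. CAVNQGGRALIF, with TRAV3-3 and TRAJ15, went from 4.01% of tumor 1 to 25.3% of tumor 2. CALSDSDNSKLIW, with TRAV6-5 and TRAJ38, ranked 2 in tumor 1 at 5.57% and 129 in tumor 2 at 0.0412%. In mouse 11 the TRAV6-5 clonotype with TRAJ30 held 5.58% and 14.4%, and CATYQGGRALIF, with TRAV13-1 and TRAJ15, held 4.82% and 1.07%. In mouse 20 the TRAV11 clonotype with TRAJ32 held 2.74% and 22.1%, a log2 ratio of 3.01, and the largest loss, of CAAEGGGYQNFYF with TRAV4-2 and TRAJ49, was from 2.95% to 0.0803%. TRAV11 is best known from the invariant receptor of natural killer T cells, but that receptor uses TRAJ18. The share of the largest TCRα clonotype of each tumor was higher in tumor 2 by 11.1, 5.30 and 19.1 points in mice 3, 11 and 20. It was higher by 0.182, 0.798 and 11.6 points in mice 4, 17 and 19. The largest clonotype could differ between the tumors. In mouse 4 the largest of tumor 1 held 14.7% there and 1.80% of tumor 2, and that of tumor 2 held 4.04% and 15.1%. Mouse 19 lay between the low-dose mice, and the difference was not tested.

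Segment usage was tested on counts and on clonotypes, the latter giving every clonotype found in a tumor the same weight. Clonotype shares were not shown to be free of clone size. CDR3 lengths that took many counts in a single mouse also took many of its clonotypes, as given below. By counts 29 TCRβ segments were tested and 1 was called at an adjusted p under 0.05, a background of 3.45%. The groups did not overlap for 2 of the 29, 6.9%. A segment without any difference would separate 3 mice from 3 with a probability of 0.1. By clonotypes 33 were tested and 0 were called by edgeR, 0%, with 2 at an unadjusted p under 0.05 and 0 called by DESeq2 or limma, while the groups did not overlap for 1, 3.03%. The segment called was TRBV3. Its share of TCRβ counts was 0.508%, 0.459% and 0.438% in the low-dose mice and 6.69%, 2.93% and 0.455% in the untreated mice, a log2 fold change of -2.84 (SE 0.80, edgeR adjusted p = 0.0167). Mouse 19 lay among the low-dose mice, so the groups overlapped. A single clonotype made up 75.9% of the TRBV3 counts in mouse 4 and 72.5% in mouse 17, and no TRBV3 clonotype of a low-dose mouse exceeded 0.201% of that mouse's counts.

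The leading TRBV3 clonotypes of these untreated mice are shown, with capitals as above, because they held most of the TRBV3 counts there.
mouse 4 β, TRBV3 with TRBJ1-4: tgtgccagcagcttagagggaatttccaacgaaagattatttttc
mouse 17 β, TRBV3 with TRBJ2-3: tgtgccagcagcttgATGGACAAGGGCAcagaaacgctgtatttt
The former held 6.79% of tumor 1 and 3.31% of tumor 2 in mouse 4, and the latter 1.28% and 3.17% in mouse 17. Without the largest TRBV3 clonotype of each mouse the shares were 0.433%, 0.258% and 0.409% in the low-dose and 1.70%, 0.824% and 0.353% in the untreated mice. By clonotypes TRBV3 was at 1.39% ± 0.077 and 2.74% ± 1.30 (log2 fold change -0.98, SE 0.46, edgeR adjusted p = 0.555). The call by counts was lost in 9 of 14 alternative settings, which included leaving out mouse 3, 4, 11 or 20 (edgeR adjusted p = 0.0754, 0.603, 0.171 and 0.290).

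With the tumors of a mouse summed, TRBJ2-4 and TRBJ2-5 were the J segments whose TCRβ counts separated the groups, both higher in low-dose mice. Single tumors overlapped for TRBJ2-4. At common depth it took 9.48% of tumor 1 in untreated mouse 19 and 5.92% of tumor 1 in low-dose mouse 11. TRBJ2-4 took 13.2%, 7.69% and 16.6% of counts in the low-dose mice and 3.40%, 1.81% and 5.26% in the untreated mice (log2 fold change 1.84, SE 0.73, edgeR adjusted p = 0.194). By clonotypes it took 11.3%, 9.45% and 10.4% against 6.24%, 5.50% and 8.91%, again without overlap (log2 fold change 0.60, SE 0.27, edgeR adjusted p = 0.555). Neither fit called it. The largest TRBJ2-4 clonotype differed between the low-dose mice, as the sequences show.
mouse 3 β, TRBV13-2 with TRBJ2-4: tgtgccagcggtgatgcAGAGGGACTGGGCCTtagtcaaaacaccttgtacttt
mouse 11 β, TRBV5 with TRBJ2-4: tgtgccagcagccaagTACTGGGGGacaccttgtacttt
mouse 20 β, TRBV17 with TRBJ2-4: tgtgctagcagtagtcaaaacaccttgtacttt
These shared the TRBJ2-4 end but differed in V segment, joint and length, and made up 60.5%, 50.2% and 71.1% of the TRBJ2-4 counts of mice 3, 11 and 20. Without the largest TRBJ2-4 clonotype of each mouse the share was 5.66%, 3.98% and 5.43% in the low-dose mice and 3.04%, 1.34% and 3.60% in the untreated mice, which still did not overlap. TRBJ2-5 took 13.0%, 17.6% and 14.9% against 11.7%, 8% and 9.52% of counts (log2 fold change 0.64, SE 0.65, edgeR adjusted p = 0.649).

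The other most used TCRβ segments overlapped between the groups. TRBV17 had the highest mean share of the V segments, with 19.9%, 30.5% and 35.6% of counts in the low-dose and 8.03%, 26.7% and 35.8% in the untreated mice. It was not the most used in every mouse, since TRBV13-2 was higher in mouse 3, TRBV13-1 in mouse 17, and TRBV13-1, TRBV13-2, TRBV13-3 and TRBV19 in mouse 4. TRBV13-1 took 12.0% ± 5.10 against 22.3% ± 10.2, TRBV13-2 12.0% ± 7.86 against 11.9% ± 6.16, and TRBV13-3 4.79% ± 2.69 against 7.24% ± 2.23. TRBV19 took 8.07% ± 4.12 against 5.55% ± 2.31. Among J segments TRBJ2-7 took 36.2%, 16.5% and 12.3% in the low-dose mice and 28.6%, 33.1% and 33.9% in the untreated mice. TRBJ2-1 took 10.9%, 32.3% and 27.0% against 12.6%, 8.78% and 17.0%. Mouse 3 thus used TRBJ2-7 and TRBJ2-1 at levels within or near those of the untreated mice, and mice 11 and 20 did not.

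The summed TRBV13 family, 3 closely related V segments that are the most used family in many mouse strains, separated the groups although no member did. It took 28.9%, 30.6% and 26.8% of counts in the low-dose mice and 43.7%, 43.6% and 36.9% in the untreated mice. By clonotypes it took 33.9%, 32.4% and 32.8% against 38.5%, 37.7% and 34.1%. The family was listed with earlier results of these data known, so its separation is not independent of them. The groups did not overlap by either measure, but 0 of its 3 members were called, 1 of 3 had a log2 fold change above 0 by counts, and the median of -0.59 compares with 0.28 over all 17 TCRβ V segments tested. Of the J clusters, TRBJ1 took 17.8% ± 4.67 against 25.3% ± 5.45 of counts and TRBJ2 82.2% ± 4.67 against 74.7% ± 5.44, with overlap and with 0 of 6 members called in each. V segments whose T cells are deleted in BALB/c mice by endogenous retroviral superantigens (TRBV12-1, TRBV12-2, TRBV15, TRBV16 and TRBV26) took 1.96% ± 1.42 and 1.06% ± 0.24 of counts, with overlap.

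**Figure D4:**
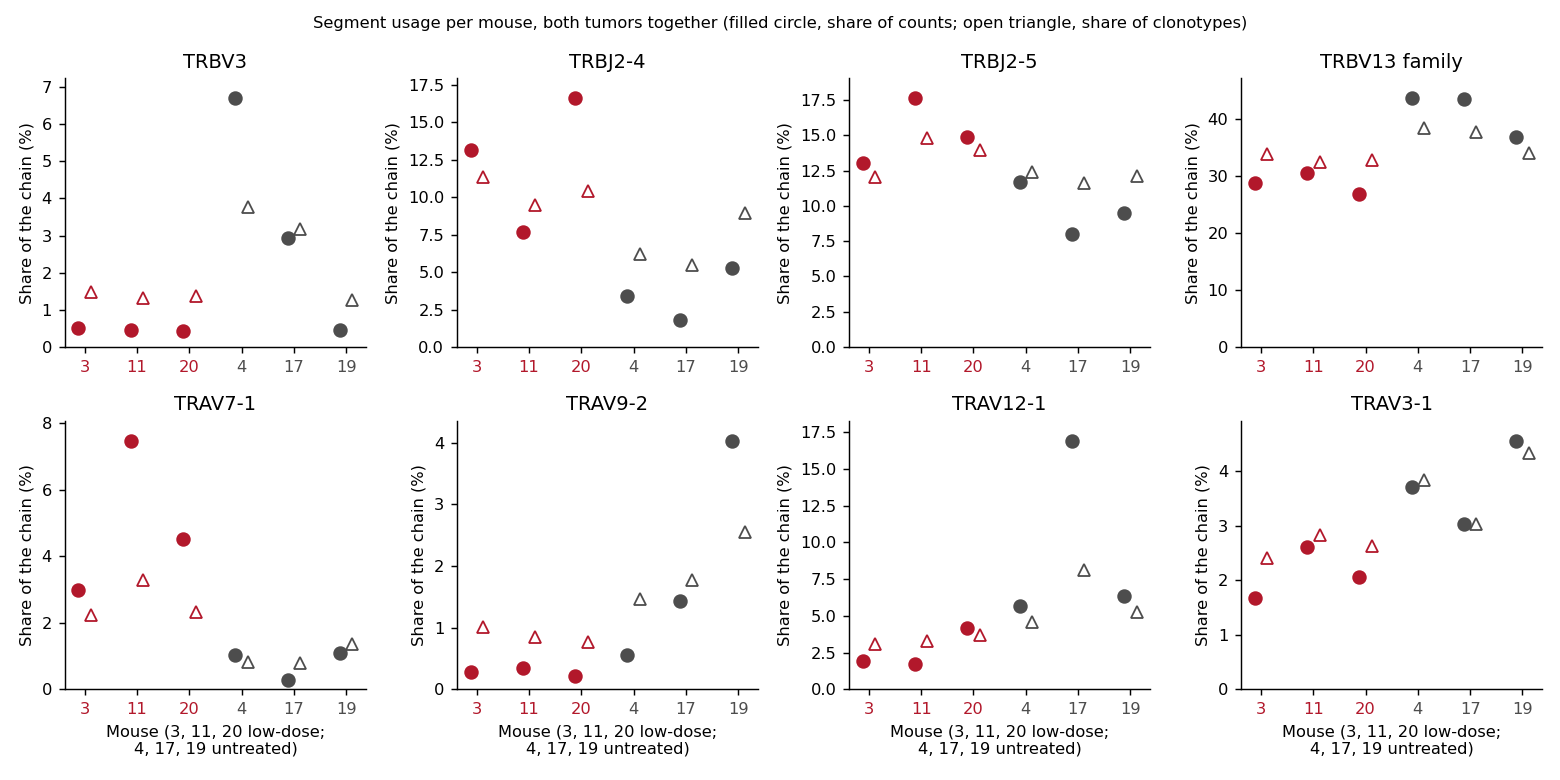
Share of a chain (y axis, percent, from 0) taken by 7 segments and the TRBV13 family in each mouse (x axis), with the tumors of a mouse summed. Filled circles are shares of counts and open triangles shares of clonotypes. TRBJ2-4 and TRAV7-1 lie higher, and the TRBV13 family, TRAV9-2, TRAV12-1 and TRAV3-1 lower, in every low-dose mouse than in any untreated mouse, whereas TRBV3 in mouse 19 lies with the low-dose mice.

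In TCRα 96 segments were tested by counts and 0 were called by edgeR, 0%, with 9 at an unadjusted p under 0.05 and 2, TRAV7-1 and TRAV12N-2, called by DESeq2 and 0 by limma. The groups did not overlap for 10 of the 96, 10.4%, of which 3 were higher in low-dose mice. This share is near the probability of 0.1 for segments without any difference. By clonotypes 103 were tested and 0 called by edgeR, 0%, with 7 at an unadjusted p under 0.05 and 1, TRAV7-1, called by DESeq2 and 0 by limma. The groups did not overlap for 17 of the 103, 16.5%, of which 3 were higher in low-dose mice. That share is above 0.1, but segments of the same mice are not independent, and the excess was not tested. The named segments below are among these, chosen by fold change from those above 1% of usage.

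TRAV7-1 was higher in the low-dose mice and was the TCRα segment that DESeq2 called by both measures. It took 2.99%, 7.49% and 4.52% of counts in the low-dose mice and 1.04%, 0.273% and 1.11% in the untreated mice (log2 fold change 2.63, SE 0.88, edgeR adjusted p = 0.264; DESeq2 adjusted p = 0.0433). By clonotypes it took 2.24%, 3.29% and 2.31% against 0.816%, 0.799% and 1.35% (log2 fold change 1.40, SE 0.37, edgeR adjusted p = 0.465; DESeq2 adjusted p = 0.0251). In 4 of the 6 mice the leading TRAV7-1 clonotype joined TRAJ30 and had a CDR3 of 12 residues that differed in the third residue only. This group was picked out after its values were seen. The leading sequence of each of the 5 mice that held such a clonotype is shown with the codon of the third residue in capitals.
mouse 3 α, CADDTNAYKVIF: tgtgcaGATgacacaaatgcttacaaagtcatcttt
mouse 11 α, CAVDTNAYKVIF: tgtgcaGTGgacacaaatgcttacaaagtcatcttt
mouse 20 α, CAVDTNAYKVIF: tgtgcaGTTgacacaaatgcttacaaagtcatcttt
mouse 4 α, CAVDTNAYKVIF: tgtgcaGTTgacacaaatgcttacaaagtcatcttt
mouse 19 α, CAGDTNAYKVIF: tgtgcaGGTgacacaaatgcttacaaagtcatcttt
Mice 11 and 20 thus held the same receptor chain with different codons, and mice 20 and 4 with the same codon.

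These TRAV7-1 chains with TRAJ30 held 2.51%, 6.61% and 1.43% of TCRα counts as the mean over the tumors of mice 3, 11 and 20. They held 0.651%, 0 and 0.820% in mice 4, 17 and 19. Such chains were also present without DAC. They held 1.93%, 8.83% and 1.66% in the untreated time-matched mice 6, 12 and 14, whose tumors were both collected at the same time. In the mice given high-dose DAC, 7, 10 and 16, they held 3.58%, 0.807% and 0.129%. In mouse 20 most TRAV7-1 counts belonged to another clonotype, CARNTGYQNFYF with TRAJ49, which held 1.58% of tumor 1 and 6.03% of tumor 2. Without the largest TRAV7-1 clonotype of each mouse the share was 0.393%, 0.717% and 1.45% in the low-dose mice and 0.274%, 0.218% and 0.400% in the untreated mice, and the groups overlapped.

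A further 3 V segments were lower in every low-dose mouse than in any untreated mouse by both measures, without a call. TRAV9-2 took 0.280%, 0.340% and 0.221% of counts in the low-dose mice and 0.550%, 1.43% and 4.03% in the untreated mice (log2 fold change -2.84, SE 0.95, edgeR adjusted p = 0.264). A single clonotype, with TRAJ12 in mouse 17 and TRAJ39 in mouse 19, made up 67.8% and 73.2% of it in these mice. TRAV12-1 took 1.94%, 1.73% and 4.17% against 5.67%, 16.9% and 6.35% (log2 fold change -1.89, SE 0.78, edgeR adjusted p = 0.390). Its leading clonotype in both mice 17 and 19 was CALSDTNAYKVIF with TRAJ30, which held 7.57% and 3.50% of their TCRα counts. TRAV3-1 took 2.11% ± 0.466 against 3.77% ± 0.772 (log2 fold change -0.84, SE 0.74, edgeR adjusted p = 0.605). By clonotypes the shares of TRAV9-2, TRAV12-1 and TRAV3-1 were 0.877%, 3.35% and 2.62% in low-dose and 1.93%, 5.98% and 3.74% in untreated mice. Without the largest clonotype of each mouse the groups still did not overlap for TRAV9-2 and TRAV12-1, and TRAV3-1 was not examined in this way.

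Of the J segments of TCRα, TRAJ50 was the higher in low-dose mice by counts, 1.87% ± 0.491 against 1.14% ± 0.356. TRAJ52 and TRAJ53 were lower, 1.06% ± 0.0885 against 1.90% ± 0.461 and 2.11% ± 0.492 against 3.15% ± 0.516. In tumor 2 alone the log2 fold change turned to 0.11 for TRAJ53 by counts and to 0.0501 for TRAJ52 by clonotypes. By clonotypes TRAJ37, TRAJ40, TRAJ52 and TRAJ53 were all lower in every low-dose mouse, for example TRAJ40 with 4.37%, 4.73% and 5.04% against 6.26%, 6.50% and 5.26%. Their edgeR adjusted p lay between 0.547 and 0.699. Apart from TRAV12-1, the most used TCRα segments overlapped. TRAV7-4 took 9.81% ± 0.755 against 9.95% ± 7.31, TRAV3-3 10.7% ± 5.86 against 7.42% ± 2.28, TRAV14-1 8.74% ± 8.92 against 2.55% ± 1.15 and TRAV6-6 4.73% ± 3.96 against 6.09% ± 2.57 of counts. TRAJ15 took 17.7%, 9.69% and 1.41% in the low-dose and 1.52%, 1.75% and 0.447% in the untreated mice, and its largest clonotype made up 77.6% of it in mouse 3 and 37.1% in mouse 11. TRAJ30 took 8.12% ± 9.24 against 13.1% ± 8 and TRAJ49 7.22% ± 3.97 against 9.86% ± 6.86.

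Chains typical of innate-like T cells were rare in both groups. TRAV11 joined to TRAJ18, the invariant pairing of natural killer T cells, took 0.259%, 0.208% and 0.525% of TCRα counts in the low-dose mice and 0.348%, 0.320% and 0.913% in the untreated mice. TRAV1 joined to TRAJ33, the pairing of mucosal-associated invariant T cells, took 0.0355% ± 0.0408 and 0.102% ± 0.0623. The groups overlapped in both.

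The mean CDR3 length overlapped between the groups in both chains. Weighted by counts, the TCRβ CDR3 had a mean of 13.6, 13.7 and 12.9 residues in the low-dose mice and 13.2, 12.7 and 14.3 in the untreated mice (exact permutation p = 1). Over clonotypes it was 13.8 ± 0.112 and 13.9 ± 0.444 (exact permutation p = 0.9). The TCRα CDR3 had 13.6 ± 0.193 and 13.4 ± 0.180 residues by counts (exact permutation p = 0.4) and 13.6 ± 0.0925 and 13.6 ± 0.0705 over clonotypes (exact permutation p = 0.5). Some lengths stood out in single mice. In mouse 20 CDR3s of 11 residues took 44.0% of TCRβ counts and 17.4% of clonotypes, a length that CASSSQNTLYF and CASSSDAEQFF share with others. In mouse 3 those of 18 residues took 9.86%, the length of the TRBV13-2 clonotype with TRBJ2-4 shown above, against 0.0462% and 0.0384% in mice 11 and 20, and over clonotypes 6.24% against 0.294% and 0.151%. In untreated mouse 19 those of 20 residues took 7.28% of TCRβ counts and 5.61% of clonotypes. In untreated mice 4 and 17 they took 0 and 0.00067% of counts. Clonotype shares thus rose with count shares in these mice, and whether sequence variants of large clonotypes added to them was not tested. For TCRα, lengths of 13 residues took 21.4%, 20.1% and 30.5% of counts in the low-dose and 43.0%, 40.8% and 29.0% in the untreated mice, and lengths of 15 took 16.2%, 21.7% and 29.4% against 13.0%, 7.67% and 19.4%. Both sets overlapped. Of the 20 TCRα lengths found, the groups did not overlap for 2 by counts, 10%, and for 1 over clonotypes, 5%, against 0 of 15 TCRβ lengths, 0%, by either measure. A length without any difference would separate 3 mice from 3 with a probability of at most 0.1. TCRα lengths of 11 residues took 1.76%, 1.27% and 1.79% of counts in the low-dose and 3.35%, 2.84% and 2.41% in the untreated mice. The other length without overlap was 9 residues, also lower in the low-dose mice and below 1% of counts in all 6. Over clonotypes, TCRα lengths of 15 residues took 17.8%, 18.0% and 18.9% in the low-dose and 16.2%, 12.8% and 17.4% in the untreated mice, without overlap. Single lengths were not tested.

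**Figure D5:**
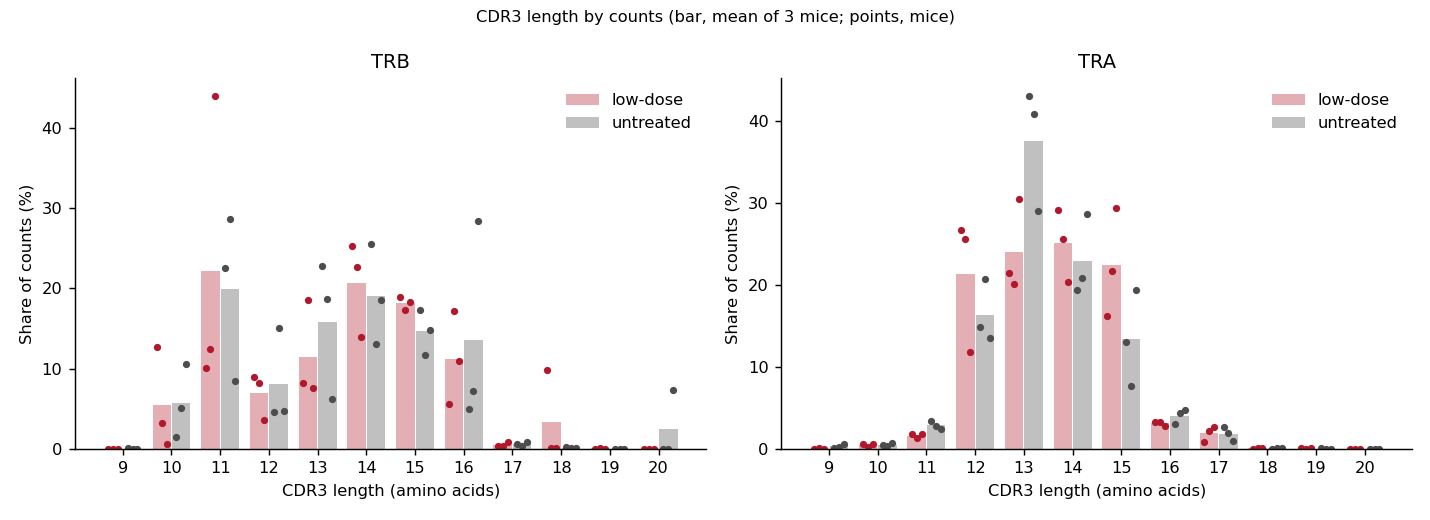
Share of counts (y axis, percent) by CDR3 length in amino acids (x axis) for TCRβ (TRB, left) and TCRα (TRA, right). Bars are means of 3 low-dose or 3 untreated mice and points are mice. The point at 44.0% for 11 residues in TCRβ is mouse 20, and at 13 residues in TCRα the low-dose mean of 24.0% lies below the untreated mean of 37.6%.

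Some large clonotypes recurred in other mice. Of the TCRβ clonotypes above 1% in at least 1 tumor, 18, 25 and 19 in the low-dose mice, 10, 10 and 8 were found in at least 1 of the other 5 mice, and 1, 2 and 3 were above 1% there too. In the untreated mice 15, 12 and 9 of 24, 21 and 18 were found elsewhere, and 3, 2 and 1 were above 1% there. For TCRα 7, 9 and 11 of 20, 21 and 24 were found elsewhere in the low-dose mice and 8, 8 and 5 of 23, 22 and 22 in the untreated mice, with 3, 6 and 4 against 2, 6 and 2 above 1% there. The TCRα chain with the highest share outside its top mouse was found in low-dose mice 3 and 20 and in none of the other 4. It joined TRAV7-4 to TRAJ12 and had the same main nucleotide sequence in both mice.
mouse 3 and mouse 20 α, TRAV7-4 with TRAJ12: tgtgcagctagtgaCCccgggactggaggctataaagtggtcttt
It held 2.99% and 7.56% of tumors 1 and 2 of mouse 3, and 2.52% and 9.05% of those of mouse 20. Whether the same sequence arose in both mice or passed between libraries was not tested. The highest TCRα overlap between low-dose tumors of different mice, a Morisita-Horn index of 0.0800, was between tumors 2 of these mice, below the lowest index within a low-dose mouse, 0.322. Between untreated mice the highest index was 0.189, above that within mouse 19.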

How the data were processed

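TCRα and TCRβ libraries covering the CDR3 were made by the authors from whole-tumor RNA with a kit that adds unique molecular identifiers, and the authors called clonotypes with Cogent NGS Immune Profiler. The deposited tables hold whole-number counts per receptor sequence, not normalized. Whether reads with the same identifier were merged before counting is not given in the sources used here, nor is the genome build behind the segment names. Groups, mouse and tumor numbers came from the sample labels. Nothing pairs mice across groups.

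Sequences marked for a stop codon or frame shift and those with fewer than 2 counts were left out. A clonotype was a CDR3 amino acid sequence with its V and J. Each library was reduced by drawing counts at random, without putting them back, to 63291 for TCRβ and 26623 for TCRα, the smallest of all 24 libraries of the chain, in 20 draws that were averaged. The median absolute log2 ratio had 1 count added on both sides. limma was run on log2 of the share plus 0.01%. Clonotype and segment shares used all retained counts, with segment shares taken over the summed tumors of a mouse, whereas clonotypes per segment were counted at the common depth and rounded. Per-tumor measures were averaged over the tumors of a mouse. The 26 comparisons used two-sided exact permutation tests of 3 against 3 mice with Benjamini-Hochberg adjustment, which leave nothing below 0.1 and are exploratory. Segments with a mean share of at least 0.1% were tested with the edgeR quasi-likelihood test on summed counts or clonotypes per mouse, with the chain's V total as library size and adjustment over the V and J segments of the chain. Exact permutation p-values give the share of the 20 assignments of 6 mice with a difference at least as large. edgeR p-values set the group difference against the spread between mice of a group, moderated over segments. Intervals of single shares are Clopper-Pearson at 95%.

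Segments described were those called by edgeR, the 5 V and 3 J segments used most, per chain and measure up to 4 V and 4 J segments of at least 1% whose groups did not overlap, by fold, and the lists in the text. Clonotypes named were the largest of each low-dose mouse, the largest gain and loss among the 10 largest of either tumor, and the most shared clonotype of each chain, of which the TCRβ one is not reported here, to which the leading TRBV3, TRBJ2-4 and TRAV7-1 clonotypes were added after values were seen. The comparison and lists were chosen with earlier results of these data known. Alternatives changed depth, minimum count, clonotype definition, the largest clonotype, the tumor used, normalization, filter, test and the set of mice. The scripts were tested on simulated data. edgeR 4.0.16, limma 3.58.1 and DESeq2 1.42.0 were run in R 4.3.3, and the rest in Python 3.11.15 with pandas 2.3.3, scipy 1.17.1, numpy 2.4.6 and matplotlib 3.10.9.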

Additional observations from a re-analysis of the deposited data

How the results depend on the processing

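Of the 26 comparisons between low-dose and untreated mice, 15 kept their direction under every alternative tried and 11 did not, in 26 of 290 recomputed values. No alternative gave an exact permutation p below 0.1. The 3 TCRα measures of evenness kept their direction in all alternatives, but their groups overlapped in tumor 1 alone. Those of the Gini coefficient and the small-clonotype share overlapped in tumor 2 alone, and those of the Gini coefficient with single-count sequences kept. Without the top clonotype of every mouse the low-minus-untreated difference turned to -0.0116 for TCRβ V usage change, -0.0150 for TCRβ J usage change, -0.0047 for TCRβ CDR3 length change, -0.0199 residues for TCRα CDR3 length weighted by counts, 0.0051 for TCRα V usage change and 0.00078 for TCRα J usage change. In tumor 1 alone the TCRβ CDR3 length difference turned to 0.11 residues by counts and 0.0271 over clonotypes. With 50 tracked clonotypes the TCRβ median absolute log2 ratio turned to a difference of -0.32. Leaving out each mouse in turn gave differences from -0.38 to 0.43 residues for TCRβ CDR3 length by counts, -0.23 to 0.19 over clonotypes, -0.0521 to 0.0843 for TCRβ V usage change, -0.0561 to 0.0398 for TCRβ J usage change, -0.40 to 0.56 for the TCRβ median absolute log2 ratio, -0.0580 to 0.268 for the TCRα Morisita-Horn index, -0.0618 to 0.0451 for TCRα V usage change, -0.106 to 0.0578 for TCRα J usage change and -0.99 to 0.46 for the TCRα median absolute log2 ratio. The 1 TCRβ segment called by counts became 0 with all 12 mice in the fit, with limma, with no filter, in tumor 1 alone and in tumor 2 alone, and 0 to 1 when a mouse was left out. The adjusted p of TRBV3 ranged from 0.0033 to 0.852 over the 14 settings. By clonotypes 0 to 2 TCRβ segments were called when a mouse was left out, the 2 without mouse 3. DESeq2 called 2 TCRα segments by counts and 1 by clonotypes, against 0 by edgeR. The log2 fold change turned to 0.0501 for TRAJ52 by clonotypes and 0.11 for TRAJ53 by counts in tumor 2 alone. The cause of these changes was not tested. No paired analysis was possible because the groups hold different mice and share no replicate number. Depth limits the smallest clonotypes, since at common depth those of a few counts are found or missed by sampling.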
